A study of Mus musculus with 8 samples.

Results

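The glutathione and NRF2 antioxidant genes are a set of 40 genes, chosen by name from what their products do, and all 40 had a row among the 16647 gene rows of the count table. They cover the regulators Nfe2l2 and Keap1, the supply and recycling of glutathione, the glutathione transferases and peroxidases, the thioredoxin and peroxiredoxin systems, superoxide dismutases and catalase, and NRF2 targets that include the enzymes making NADPH. They were measured by Drop-seq, which counts polyadenylated RNA per barcoded droplet, in Tri-PyMT cells, a line from a primary metastatic breast tumour of a triple transgenic mouse (MMTV-PyMT, Fsp1-cre and Rosa26mT/mG). The line was grown in DMEM with 10% FBS and sorted by fluorescence into an RFP+ and a GFP+ population, and both populations carry all 3 transgenes. In this reporter a red protein is made until Cre removes its cassette and a green one afterwards, and Cre is driven by the promoter of Fsp1 (S100a4), which is active in fibroblasts and in cells that have left the epithelial state. Each population had 2 libraries, each run on 2 lanes that stand pooled in the table, so n was 2 libraries per population.

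NRF2, the product of Nfe2l2, is a transcription factor that the adaptor Keap1 holds at a low level by sending it for destruction. Oxidants and electrophiles modify Keap1, and NRF2 then enters the nucleus and binds antioxidant response elements near genes for glutathione synthesis, thioredoxin reduction and NADPH supply. Glutathione and thioredoxin pass electrons from NADPH to peroxidases, which remove hydrogen peroxide and lipid peroxides. In mammary tumours these systems are known for their part in survival under oxidative stress and in resistance to drugs.

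The 7390 cells used held 2550319 to 3081009 counts per library, with medians of 1166 to 1358 counts per cell. No pair of libraries shared more than 2 cell barcodes. Summed over 6 mammary epithelial markers, the libraries labelled RFP+ were at 2145 and 2211 CPM (a gene's counts over the library's total, on the usual common scale) and those labelled GFP+ at 940 and 887. Markers of other cell types were low. The 4 fibroblast genes in the table moved with the populations, at 2.27 and 2.01 CPM against 9.62 and 7.45, from 7 and 6 against 25 and 19 counts. The 5 immune genes summed to 2.31 to 5.19 CPM per library with 1 of them at 0 throughout, the 3 endothelial genes to 0 to 1.54, and the 1 erythroid gene to 0. The reporter rows went against the labels, with CUSTOM_RFP at 132 and 137 CPM in the RFP+-labelled libraries and 2943 and 3053 in the GFP+-labelled ones. S100a4, whose promoter drives Cre, was at 648 and 676 CPM against 1843 and 2114, higher where the label says GFP+. The mitochondrial share of counts was 0.664% and 0.644% against 0.403% and 0.378%. The part of these shifts in the results was not tested, and directions below follow the labels. The labels name no separate cultures, so the p-values below speak only of how these libraries vary, and that variation may be technical.

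Promoters of 34 of the 40 genes were matched in RefSeq (GRCm38.p6). In the 250 bases before a start, 7 of these 34 genes (20.6%) held the core of the antioxidant response element, TGACNNNGC on either strand, against 11.5% of 27025 genes. Some genes have more than 1 start, and a match in any window counted. By window the share was 7 of 44 (15.9%), against 10.2% of 32851. The 7 genes are Nfe2l2, Gclm, Prdx1, Mgst1, Txnrd1, Sod1 and G6pdx. Mgst1 and Txnrd1 also have windows without a match, and the Txnrd1 window shown is the one with it. The promoters of Gclm, Txnrd1 and Prdx1 are shown because all 3 hold this core while Txnrd1 rose, Prdx1 fell and Gclm did not pass in the comparison of the populations. Capitals mark the match, which lies on the reverse strand in each (GCNNNGTCA as printed), 134, 92 and 133 bases before the start. All 3 genes are on the plus strand, at chr3:122245307-122245556, chr10:82858956-82859205 and chr4:116685349-116685598.
Gclm: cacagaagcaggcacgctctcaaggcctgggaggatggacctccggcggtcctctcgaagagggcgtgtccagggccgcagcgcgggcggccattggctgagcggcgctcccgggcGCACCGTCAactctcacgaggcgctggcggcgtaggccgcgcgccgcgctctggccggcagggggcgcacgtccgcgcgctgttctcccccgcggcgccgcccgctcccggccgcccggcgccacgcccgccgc
Txnrd1: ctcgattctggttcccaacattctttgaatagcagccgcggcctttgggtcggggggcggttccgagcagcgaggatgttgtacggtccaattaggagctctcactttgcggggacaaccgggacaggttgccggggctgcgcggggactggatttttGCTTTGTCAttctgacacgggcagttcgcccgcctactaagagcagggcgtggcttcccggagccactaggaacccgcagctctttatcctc
Prdx1: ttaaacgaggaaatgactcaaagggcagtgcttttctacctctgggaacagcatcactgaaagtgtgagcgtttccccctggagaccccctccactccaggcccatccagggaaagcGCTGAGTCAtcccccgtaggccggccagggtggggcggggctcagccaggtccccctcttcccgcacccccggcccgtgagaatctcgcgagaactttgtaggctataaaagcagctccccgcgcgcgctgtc
The Prdx1 match overlaps the AP-1 motif TGAGTCA, which along with TGACTCA occurs at 2 places in that window. A match describes the letters and does not show that the factor bound there.

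The main comparison asked how the antioxidant genes differ between the sorted populations of this lineage reporter. The set did not move as one. In the libraries labelled GFP+, 6 genes rose (Gstp1, Gsta4, Gpx4, Gpx8, Txnrd1 and Akr1b3) and 11 fell (Gsr, Glrx, Gstk1, Gpx1, Txn1, Prdx1, Prdx5, Prdx6, Sod1, Taldo1 and Tkt). Another 19 did not pass, and 4 were too low to test. The rise of Gstp1 was 1.76-fold, and the fall of Gstk1 was to 0.403 of the level in the RFP+-labelled libraries. A gene was called at a Benjamini-Hochberg adjusted p under 0.05 in edgeR's quasi-likelihood test over 7595 genes.

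Of all genes tested, 15.7% were higher, 14.9% lower and 30.5% called in either direction. Among the 36 antioxidant genes tested the shares were 16.7%, 30.6% and 47.2%. Their median log2 fold of GFP+ over RFP+ labelled libraries was -0.06, and that of all genes 0.00. Levels did not overlap between the populations in 11 genes upward and 16 downward, where 34.3% and 30.7% of all genes tested did the same. For the alternative settings, the shares of all genes called are not given here. The counts that follow therefore cannot tell a change in these genes from a change in all genes. DESeq2's Wald test called 3 higher (Gstp1, Gpx8 and Txnrd1) and 5 lower (Gstk1, Gpx1, Prdx1, Prdx6 and Taldo1). The calls of Gsr, Glrx, Gsta4, Gpx4, Txn1, Prdx5, Sod1, Akr1b3 and Tkt were lost there. With offsets for transcript length and GC content the split was 8 higher and 6 lower. Without library 2 labelled GFP+ it was 5 higher and 7 lower.

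**Figure D1:**
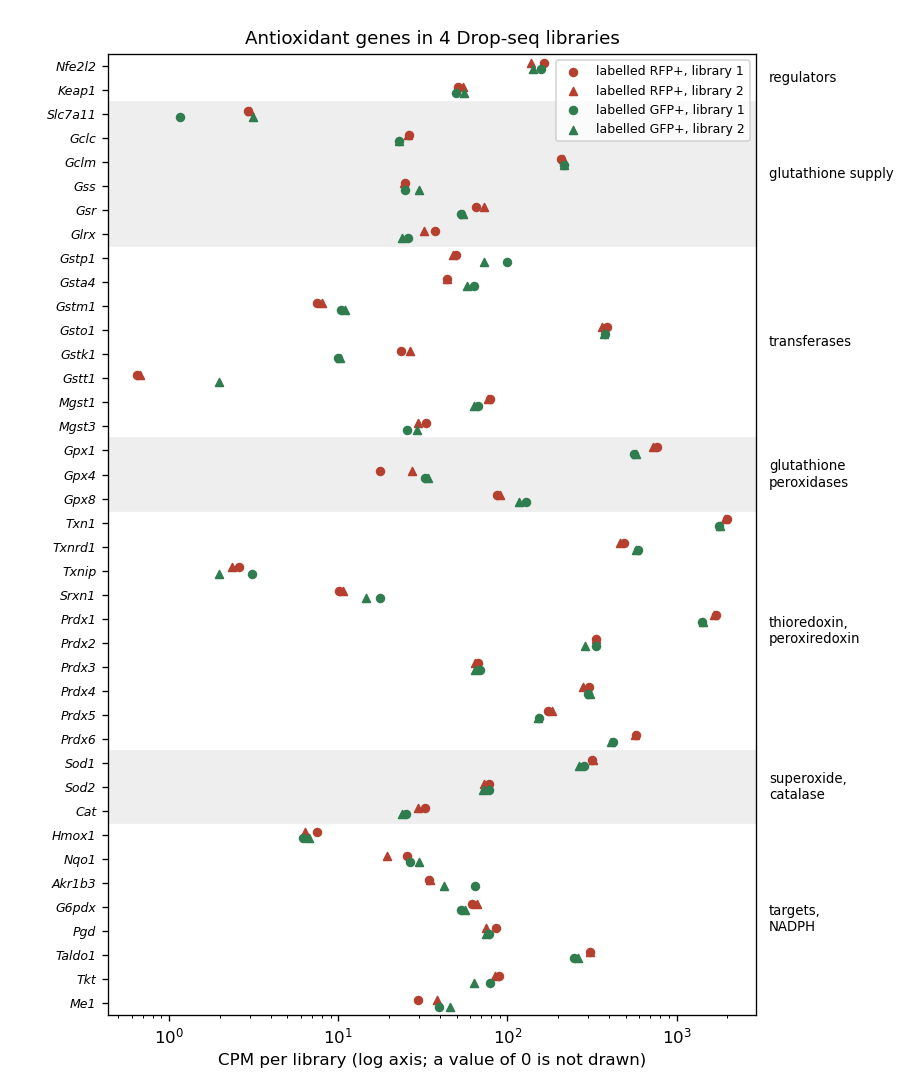
CPM of each of the 40 antioxidant genes on a log axis, with 1 point per library, colour for the labelled population and shape for the library number, grouped by role. Most genes sat at nearly the same level in all 4 libraries, while Gstk1 stood lower and Gstp1 higher in both libraries labelled GFP+; Gstt1 had no count in library 1 labelled GFP+, which is not drawn.

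**Figure D2:**
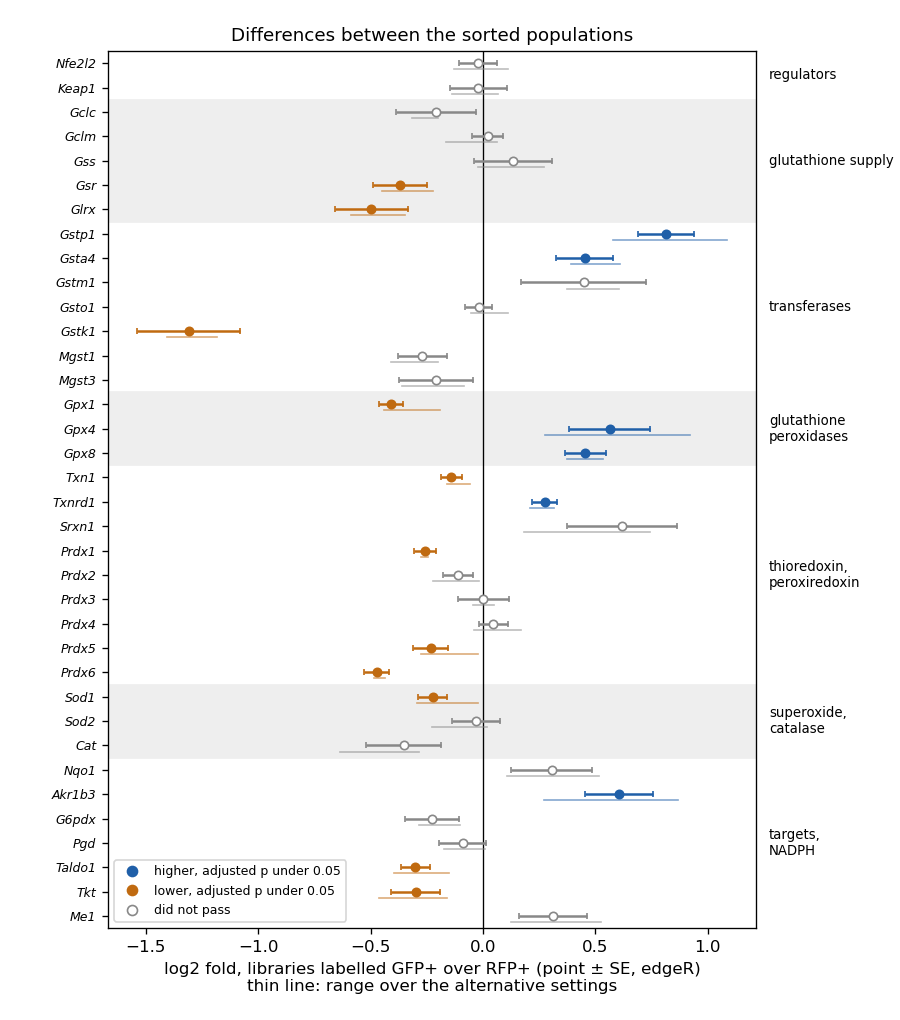
Log2 fold of the libraries labelled GFP+ over those labelled RFP+ for the 36 genes tested, as the edgeR estimate ± SE, with a thin line for the range over the alternative settings. Filled points passed the adjusted p of 0.05; they lie on both sides of 0 within the transferases, the glutathione peroxidases and the thioredoxin group.

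The regulators did not pass the test. Nfe2l2, the transcription factor, was at 164 and 137 CPM in the RFP+-labelled libraries and at 159 and 141 in the GFP+-labelled ones. Keap1, its inhibitor, was at 51.0 and 54.9 CPM against 49.6 and 55.7. Both populations covered the same range for both genes. The log2 folds were -0.02 ± 0.085 (SE) and -0.02 ± 0.13, with edgeR adjusted p values of 0.877 and 0.921. An antisense gene overlaps Keap1 and has a row of its own, and the counting is not stated to use strand.

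Glutathione is made from cysteine, glutamate and glycine. Slc7a11, which brings cystine into the cell, had only 9 and 9 counts in the RFP+-labelled libraries and 3 and 8 in the GFP+-labelled ones, too few to test. Gclc, the catalytic subunit of the enzyme that sets the rate of synthesis, was at 26.3 and 25.8 CPM against 22.7 and 22.7, a log2 fold of -0.21 ± 0.18 that did not pass. Gclm, the modifier subunit of that enzyme and the first of the promoters shown, was at 206 and 214 CPM against 215 and 215. Its log2 fold was 0.02 ± 0.070. Offsets for transcript length and GC content gave -0.17 (edgeR adjusted p = 0.0811). Gss, which adds glycine, was at 24.7 and 24.4 against 24.6 and 29.8 CPM. No gene of synthesis passed the test. Acss2 overlaps Gss on the opposite strand.

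The 2 genes of this group that recycle glutathione or use it in thiol exchange both fell. Gsr, the reductase that returns oxidised glutathione to its working form with NADPH, was at 65.2 and 72.6 CPM in the RFP+-labelled libraries and 53.1 and 54.5 in the GFP+-labelled ones. Both libraries labelled GFP+ lay below both others, and the log2 fold was -0.37 ± 0.12 (edgeR adjusted p = 0.0155). Glrx, glutaredoxin, which takes glutathione off proteins, was at 37.3 and 32.1 against 25.8 and 23.9 CPM, also without overlap, a log2 fold of -0.50 ± 0.16 (adjusted p = 0.0182). Neither call held in every setting. Gsr had an adjusted p of 0.167 when library 2 labelled RFP+ was left out and 0.0858 when library 1 labelled GFP+ was. For Glrx, leaving out library 1 labelled RFP+ gave 0.193, and leaving out library 2 labelled GFP+ gave 0.0839. In cells thinned to 1000 counts the adjusted p values were 0.359 and 0.31.

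The glutathione transferases, which join glutathione to electrophiles, moved in both directions. Gstp1, the pi-class enzyme on chromosome 19 (4035407 to 4037985, GRCm38), was at 49.7 and 47.5 CPM in the RFP+-labelled libraries and 99.7 and 72.9 in the GFP+-labelled ones. The groups did not overlap, library 1 labelled GFP+ stood highest, and the log2 fold was 0.82 ± 0.12 (edgeR adjusted p = 1.96e-06). Without that library it was 0.58 (adjusted p = 0.00128). Gstp2, a close copy of Gstp1, had 1 or 2 counts per library in its own row, and how reads matching both genes were assigned is not given in the sources used here. Gsta4, the alpha-class enzyme that handles the lipid aldehyde hydroxynonenal, was at 43.8 and 44.2 against 63.5 and 58.0 CPM, a log2 fold of 0.45 ± 0.13 (adjusted p = 0.00514). The Gsta4 call was lost without library 1 labelled GFP+ and in DESeq2's Wald test (DESeq2 adjusted p = 0.184).

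Gstk1, the kappa-class transferase of mitochondria and peroxisomes on chromosome 6 (42245935 to 42250447), went the other way. It was at 23.4 and 26.4 CPM in the RFP+-labelled libraries, from 72 and 79 counts, and at 10.0 and 10.2 in the GFP+-labelled ones, from 26 and 26 counts. Its log2 fold of -1.31 ± 0.23 was the largest in size of the 36 genes tested (edgeR adjusted p = 1.76e-05), and it was called in each of the 12 alternative settings that tested it. The share of cells with a Gstk1 transcript, in cells thinned to 1000 counts, was 2.27% and 2.53% in the RFP+-labelled libraries and 0.705% and 1.05% in the GFP+-labelled ones.

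The other transferases did not pass. Gsto1, the omega-class enzyme, was at 389 and 364 against 377 and 374 CPM, with overlapping groups. Gstm1, of the mu class, had means of 7.75 ± 0.400 (SD, n = 2) against 10.7 ± 0.415 CPM. It passed the filter on low values through the libraries labelled GFP+ alone, its log2 fold was 0.45 ± 0.28, and other mu-class genes are close copies of it. The membrane-bound Mgst1 and Mgst3 had log2 folds of -0.27 ± 0.11 (adjusted p = 0.0555) and -0.21 ± 0.16 (adjusted p = 0.354). Mgst1 was called with a filter of 50 CPM and in cells with at least 1000 counts. Gstt1 had 2, 2, 0 and 5 counts in the 4 libraries, and a count of 0 in library 1 labelled GFP+ allows up to 1.15 CPM.

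All 3 peroxidases changed, 1 down and 2 up. Gpx1, the cytosolic glutathione peroxidase on chromosome 9 (108338903 to 108340343), was at 763 and 730 CPM in the RFP+-labelled libraries and 560 and 574 in the GFP+-labelled ones, with both libraries of one population apart from both of the other. It fell by 0.41 ± 0.054 on the log2 scale (edgeR adjusted p = 1.13e-07). With length and GC offsets it was -0.19 (adjusted p = 0.00576). Gpx8, a peroxidase of the endoplasmic reticulum, was at 87.0 and 90.0 against 128 and 117 CPM and rose by a log2 fold of 0.46 ± 0.093 (adjusted p = 0.000181). Gpx4, which reduces lipid peroxides in membranes and guards cells against ferroptosis, was at 17.5 and 27.1 against 32.3 and 34.1 CPM. Library 1 labelled RFP+ was the lowest, and without it the log2 fold of 0.56 ± 0.18 became 0.27 (adjusted p = 0.378), while without library 2 labelled RFP+ it was 0.92. Without library 2 labelled GFP+ the adjusted p was 0.0574. A pseudogene of Gpx4 is annotated, so its counts are uncertain.

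In the thioredoxin system, the reductase rose and the carrier fell. Txnrd1, which reduces thioredoxin with NADPH and whose promoter is shown above, was at 491 and 462 CPM in the RFP+-labelled libraries and 588 and 575 in the GFP+-labelled ones. The groups did not overlap, and the log2 fold was 0.27 ± 0.056 (edgeR adjusted p = 0.000194). Txn1, cytosolic thioredoxin, was at 1975 and 1943 against 1783 and 1803 CPM, a log2 fold of -0.14 ± 0.048 (adjusted p = 0.0226). That small fall was not called when library 1 or 2 labelled RFP+ was left out (adjusted p = 0.105 and 0.0829), nor on leaving out library 1 labelled GFP+ (0.0740) and with length and GC offsets (log2 fold -0.06, adjusted p = 0.455). Txnip, which binds and inhibits thioredoxin, had 8, 7, 8 and 5 counts and was not tested.

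Peroxiredoxins, the abundant thiol peroxidases that thioredoxin recharges, fell or did not pass. Prdx6, which uses glutathione in place of thioredoxin, was at 572 and 570 CPM in the RFP+-labelled libraries and 419 and 411 in the GFP+-labelled ones. Within each population the 2 libraries lay close together, and the log2 fold was -0.47 ± 0.057 (edgeR adjusted p = 1.21e-08). Its copy Prdx6b had 4 or fewer counts per library, and a pseudogene of Prdx6 is annotated. Prdx1, the main cytosolic form and the third of the promoters shown, was at 1699 and 1659 against 1413 and 1425 CPM, a log2 fold of -0.26 ± 0.049 (adjusted p = 7.39e-05). Both kept the call under each of 13 alternative settings. Prdx5, found in mitochondria and peroxisomes, was at 173 and 183 against 153 and 152 CPM. Its log2 fold of -0.23 ± 0.077 (adjusted p = 0.0176) was -0.02 with length and GC offsets, and the call was lost on leaving out library 2 labelled RFP+ (0.153) or either library labelled GFP+ (0.0801 and 0.0610). Trmt112 overlaps Prdx5 on the opposite strand.

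Prdx2, Prdx3 and Prdx4, the cytosolic, mitochondrial and secretory-pathway forms, had overlapping groups and log2 folds of -0.11, 0.00 and 0.05. Prdx2 was at 332 and 335 against 336 and 288 CPM, so that library 2 labelled GFP+ stood apart from the other libraries. Without library 1 labelled GFP+ it was called (log2 fold -0.22, adjusted p = 0.0323). Junb and Rnaseh2a overlap Prdx2 on the opposite strand. Srxn1, sulfiredoxin, which repairs overoxidised peroxiredoxins, was at 10.1 and 10.7 against 17.7 and 14.5 CPM. The groups did not overlap, but its log2 fold of 0.62 ± 0.25 had an adjusted p of 0.0508, just outside the threshold.

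Superoxide dismutases turn superoxide into hydrogen peroxide, and catalase splits hydrogen peroxide. Sod1, the cytosolic dismutase, was at 316 and 321 CPM in the RFP+-labelled libraries and 285 and 266 in the GFP+-labelled ones, a log2 fold of -0.22 ± 0.064 (edgeR adjusted p = 0.00656). With length and GC offsets it was -0.02 (adjusted p = 0.84), and without library 2 labelled GFP+ the adjusted p was 0.0744. Sod2, the mitochondrial dismutase, was at 77.9 and 72.9 against 77.7 and 71.4 CPM, and did not pass. Cat had means of 30.9 ± 2.13 (SD, n = 2) against 24.5 ± 0.777 CPM without overlap, a log2 fold of -0.35 ± 0.17 (adjusted p = 0.107).

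Of the classic NRF2 targets Hmox1, Nqo1 and Akr1b3, the first was too low to test, the next did not pass and the last rose. Hmox1, heme oxygenase, had 23 and 19 counts in the RFP+-labelled libraries and 16 and 17 in the GFP+-labelled ones, or 6.16 to 7.47 CPM, under the level tested. Nqo1, which reduces quinones, was at 25.6 and 19.4 against 26.6 and 29.8 CPM, a log2 fold of 0.31 ± 0.18 (adjusted p = 0.200). Akr1b3, aldose reductase, rose from 34.4 and 34.8 CPM to 64.3 and 42.0, a log2 fold of 0.61 ± 0.15 (adjusted p = 0.00194). That rise rested on library 1 labelled GFP+, without which the log2 fold was 0.27 (adjusted p = 0.286).

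Among the enzymes of NADPH supply, Taldo1 and Tkt of the non-oxidative arm of the pentose phosphate pathway fell, and G6pdx, Pgd and Me1 did not pass. Taldo1, transaldolase, was at 309 and 309 CPM in the RFP+-labelled libraries and 247 and 260 in the GFP+-labelled ones, a log2 fold of -0.30 ± 0.065 (edgeR adjusted p = 0.000377). Length and GC offsets brought it to -0.15 (adjusted p = 0.0902), the only one of 13 settings in which it was not called. Tkt, transketolase, was at 89.6 and 84.7 against 79.3 and 63.5 CPM, a log2 fold of -0.30 ± 0.11 (adjusted p = 0.0323). Without library 2 labelled GFP+ it was -0.16 (adjusted p = 0.401), and without library 1 labelled RFP+ -0.26 (adjusted p = 0.139). G6pdx and Pgd, which make NADPH in the oxidative arm, had log2 folds of -0.23 ± 0.12 (adjusted p = 0.147) and -0.09 ± 0.11 (adjusted p = 0.549). Ikbkg overlaps G6pdx on the opposite strand. Me1, malic enzyme, was at 29.5 and 38.5 against 39.6 and 45.5 CPM and did not pass (adjusted p = 0.113), but was called without library 2 labelled RFP+ (log2 fold 0.53, adjusted p = 0.0316).

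The folds of all genes tested moved with transcript length. Over 5 length bins of tested genes, from short to long, the median log2 fold was -0.16, -0.08, 0.01, 0.10 and 0.21. The medians of the antioxidant genes did not climb in step, at -0.06, -0.09, -0.23, 0.13 and -0.005 from 20, 5, 7, 2 and 2 genes. The shortest bin held 20 of the 36 antioxidant genes, and their own median there was -0.06. Short genes were thus found on both sides, with Gstp1 (821 bases) and Gpx8 (1042) up and Gstk1 (930) and Gpx1 (1072) down. With length and GC offsets Txn1, Prdx5, Sod1, Taldo1 and Tkt lost their call and Srxn1 and Prdx4 gained one. The other called genes kept their call with these offsets. Their log2 folds were -0.48 for Prdx6, -0.27 for Prdx1, 1.04 for Gstp1, 0.53 for Gpx8, -1.19 for Gstk1 and 0.21 for Txnrd1, beside -0.47, -0.26, 0.82, 0.46, -1.31 and 0.27 without offsets. Gpx1 was at -0.19 in place of -0.41.

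**Figure D3:**
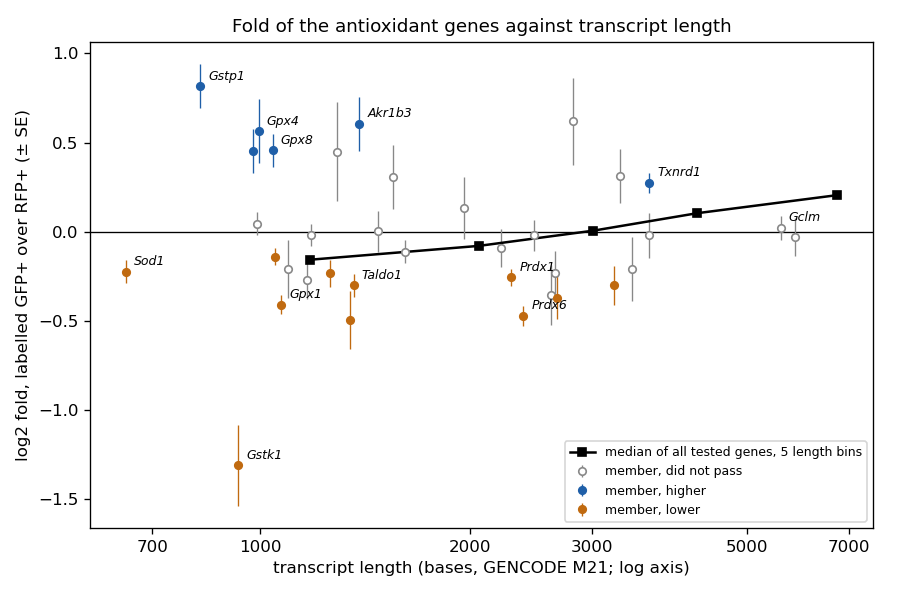
Log2 fold ± SE of each tested antioxidant gene against the length of its longest protein-coding transcript on a log axis, with the medians of all tested genes in 5 length bins as black squares. The medians climb from -0.16 to 0.21, while the called antioxidant genes of about 1000 bases lie both above and below the line.

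Summed over all 40 genes, antioxidant transcripts were at 8766 and 8573 CPM in the RFP+-labelled libraries and 7990 and 7871 in the GFP+-labelled ones. The 10 genes of the thioredoxin and peroxiredoxin group made up 5626 and 5509 against 5084 and 5041 CPM of these sums, and the 8 transferases 626 and 597 against 653 and 620. The sums follow their most abundant members and were not tested. Fewer cells with a transcript and less transcript per cell cannot be told apart in sums over a library.

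Other genes of the same pathways, 119 in all and 70 tested, were split as well, with 9 higher and 15 lower and a median log2 fold of -0.05. Of all genes tested, 15.7% were higher and 14.9% lower. The 15 include Dcaf11, Osgin1 and Aldh3a1, which passed the filter on low values only through the RFP+-labelled libraries. The count of 15 is therefore not support for a fall of these pathways. DESeq2's Wald test called only 3 higher (Ftl1, Idh1 and Ugdh) and 1 lower (Rpia), so every other call named from these lists was lost there. Of 15 tested genes of glutathione metabolism, 1 rose and 5 fell. Chac2, which degrades glutathione, rose from 13.6 and 16.4 CPM to 20.4 and 25.5 (log2 fold 0.60, edgeR adjusted p = 0.0296). Slc3a2, the partner chain of Slc7a11, was at 142 and 111 against 109 and 104 CPM and fell by 0.26. The monothiol glutaredoxins Glrx3 and Glrx5 fell by 0.24 and 0.23 (DESeq2 adjusted p = 0.102 and 0.0899). Leaving out library 1 labelled RFP+ ended the calls of Chac2 and Slc3a2 (log2 folds 0.46 and -0.08, adjusted p = 0.211 and 0.651), as did leaving out library 2 labelled GFP+ (adjusted p = 0.274 and 0.106), and that of Slc3a2 also without library 1 labelled GFP+ (0.0569). With library 2 labelled RFP+ left out, Slc3a2 was at -0.41.

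Of 17 tested genes of the wider thioredoxin list, 1 rose and 3 fell, where 15.7% of all genes tested were higher and 14.9% lower. Oxr1, an oxidation resistance gene, rose by a log2 fold of 0.44, and Sepw1, selenoprotein W, fell by 0.77 from 43.8 and 34.1 CPM to 17.3 and 29.0. Txn2, mitochondrial thioredoxin, fell by 0.36 and Txndc12, of the endoplasmic reticulum, by 0.39. Each of these calls was lost without at least one library. Without library 2 labelled RFP+, Oxr1 was at 0.25 (adjusted p = 0.0721; 0.67 without library 1 labelled RFP+) and Txn2 at -0.28 (0.0628), and without library 1 labelled GFP+, Sepw1 was at -0.43 (0.0884; -1.20 without library 2 labelled GFP+) and Txn2 at -0.26 (0.109). Txndc12 had adjusted p values of 0.220 and 0.140 on leaving out library 1 labelled RFP+ or library 2 labelled GFP+.

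Beside the same 15.7% higher and 14.9% lower of all genes stand 14 tested genes that regulate NRF2 or bind it. Of these, 3 rose and 2 fell. Among these falls, Dcaf11 (means 15.0 and 8.73 CPM), named after its values were seen, passed the filter on low values only through the RFP+-labelled libraries, so its count as a fall supports nothing. Sqstm1, the autophagy receptor that draws Keap1 away, rose from 123 and 122 CPM to 154 and 151, a log2 fold of 0.30 (edgeR adjusted p = 0.0046). Nfe2l1, a factor of the same family as NRF2, rose by 0.33, and without library 2 labelled GFP+ it was at 0.24 (adjusted p = 0.138). Brca1, which binds NRF2 and serves in DNA repair, rose by 0.57, and was at 0.17 (adjusted p = 0.561) in cells thinned to 1000 counts. Sqstm1 and Nfe2l1 also lost their call there (adjusted p = 0.0684 and 0.155). Maff, a small Maf protein that pairs with NRF2 on DNA, fell from 49.0 and 46.2 CPM to 33.5 and 26.7, a log2 fold of -0.67 (edgeR adjusted p = 0.000425, DESeq2 adjusted p = 0.0573).

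The list of further NRF2 targets and NADPH enzymes is again set beside 15.7% higher and 14.9% lower of all genes. Of its 24 tested genes, 4 rose and 5 fell. Of the 5, Aldh3a1 (means 10.1 and 5.25 CPM) and Osgin1 (13.0 and 7.78), named here after their values were seen, likewise passed that filter only through the RFP+-labelled libraries. Ftl1, ferritin light chain, rose by a log2 fold of 1.05 but has near-identical copies in the genome and is uncertain. Idh1, cytosolic isocitrate dehydrogenase and a source of NADPH, rose from 15.3 and 20.4 CPM to 34.3 and 36.5, a log2 fold of 0.97 (edgeR adjusted p = 4.39e-05). Ugdh, which makes the sugar for glucuronidation, rose by 0.47. Rpia, of the non-oxidative pentose phosphate arm, fell by 0.95 from 26.9 and 26.8 CPM to 14.2 and 13.7 (adjusted p = 0.000309). Pgls, of the oxidative arm, fell by 0.24, and with length and GC offsets it was at -0.01 (adjusted p = 0.932). Nadk, which makes NADP from NAD, fell by 0.42. It lost that call on leaving out library 2 labelled RFP+ (-0.33, adjusted p = 0.0828) or library 1 labelled GFP+ (-0.28, 0.159).

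In single cells the shares followed the sums for the strongest differences. All shares are of cells thinned to 1000 counts, 1545 and 1423 cells in the RFP+-labelled libraries and 1419 and 1233 in the GFP+-labelled ones, and their exact 95% Clopper-Pearson intervals cover counting error only. Prdx6 was found in 42.2% and 44.0% of cells in the RFP+-labelled libraries and 34.7% and 33.8% in the GFP+-labelled ones. Gpx1 was found in 52.4% and 49.8% against 43.3% and 43.7% of cells, and Taldo1 in 27.4% and 27.5% against 21.1% and 23.0%. Txnrd1 went up, from 35.9% and 35.7% to 42.0% and 43.4%. Txn1 was found in 83.0% and 84.3% against 82.4% and 83.6% of cells, so its shares overlapped between the populations. How much of the RNA came from outside a cell was not tested.

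Gstp1 was found in 4.60% (interval 3.61 to 5.76) and 3.72% (2.80 to 4.84) of cells in the RFP+-labelled libraries. In those labelled GFP+ it was found in 10.2% (8.69 to 11.9) and 7.38% (5.98 to 8.98). Unthinned, the Gstp1 shares were 7.16% and 6.86% against 15.0% and 9.68%. Nfe2l2 was found in 10.7% to 14.6% of thinned cells and Gclm in 18.3% to 19.2%, with populations overlapping for both. Hmox1, Slc7a11, Txnip and Gstt1 were each found in under 1% of thinned cells in every library.

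**Figure D4:**
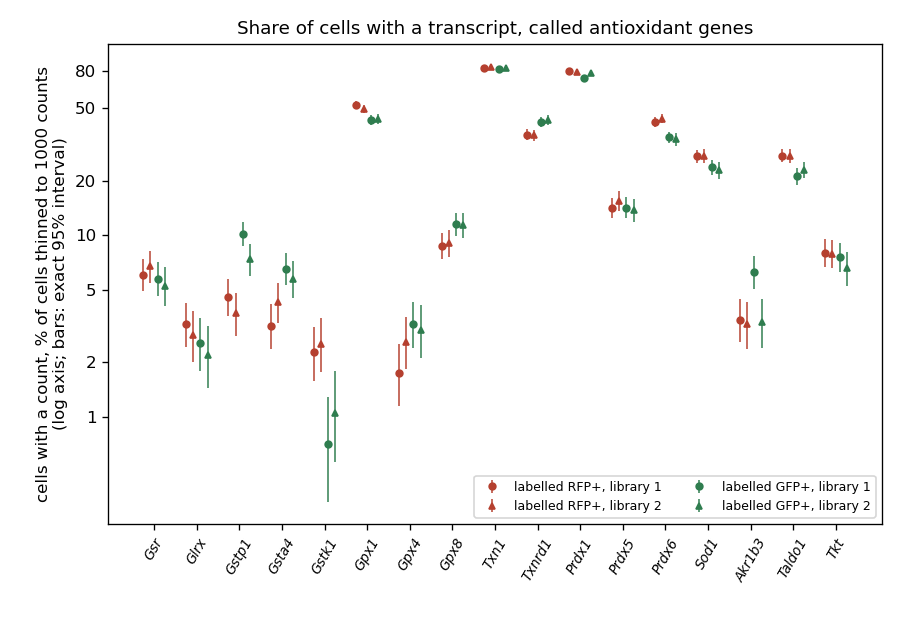
Share of cells with at least 1 count, in cells thinned to 1000 counts, for the 17 called antioxidant genes, on a log axis with exact 95% Clopper-Pearson intervals and 1 point per library. The libraries of a population lie together for Gstk1, Gpx1, Prdx6 and Txnrd1, while library 1 labelled GFP+ stands apart for Akr1b3, at 6.27% against 3.23% to 3.43% in the other libraries.

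The spread of antioxidant transcripts among the cells of 1 library was near that of counting noise. The variance of a gene's thinned counts over its mean, which is near 1 when only counting noise is present, was above 1.2 in all 4 libraries for 0 of the 33 antioxidant genes with a mean of at least 0.01 counts per cell, and for 34 of 6474 such genes in all (0.525%), so few that the count of 0 says nothing particular to the antioxidant genes. At such low means the ratio lies near 1. Txnrd1 came nearest among them, at 1.11 to 1.18 in the 4 libraries. Gsta4 was at 1.26 and 1.70 in the RFP+-labelled libraries and at 1.18 and 0.970 in the GFP+-labelled ones. The sum over the 40 genes had a median of 8 or 9 counts per thinned cell, with a ratio of 1.05 to 1.18.

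Pairs of antioxidant genes were nearly uncorrelated across thinned cells. Over 528 pairs the mean Pearson r of log2 counts plus 1 in the 4 libraries ran from -0.03 to 0.05. No pair reached 0.1 in all 4. The highest mean r was that of Prdx1 with Prdx6, at 0.0049 and 0.0318 in the RFP+-labelled libraries and 0.0754 and 0.0737 in the GFP+-labelled ones. Sparse counts can hold such values near 0, and their part here was not tested.

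A second comparison asked whether the antioxidant genes differ between cells of 1 library that stand at opposite ends of an axis from epithelial to mesenchymal transcripts. The axis was log2 of a cell's counts for 20 mesenchymal genes plus 0.5, less the same for 20 epithelial genes, in thinned cells, and the ends were the highest and lowest of 5 equal bins of each library. None of the 40 genes is on the axis. At the ends, epithelial counts per cell were 8.69 against 1.68 in library 1 labelled RFP+ and 5.76 against 0.375 in library 1 labelled GFP+.

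No antioxidant gene passed between the ends. Of 35 tested, 0 were called by edgeR, 6 had an unadjusted p under 0.05, and DESeq2's Wald test called 0, where edgeR called 120 of all 7461 genes tested (1.61%, with 0.751% higher and 0.858% lower). The difference of the axis effect between the populations was also called in 0 of the 35 by edgeR and in 0 by DESeq2. Of the 35, 2 had an unadjusted edgeR p under 0.05. Among all 7461 genes edgeR called 3 for this difference (0.0402%, with 0.0134% higher and 0.0268% lower). An unadjusted edgeR p under 0.05 was held by 847 of the 7461 along the axis and by 403 for the difference. The ends held 246 to 309 cells each, so errors were wide for low genes. The SE of the log2 fold was 0.051 for Txn1 and 0.51 for Gstk1.

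The genes that came nearest are given as values. Gsto1 was at 392, 340, 317 and 348 CPM at the epithelial end of the 4 libraries (RFP+ labelled first) and at 437, 405, 445 and 411 at the mesenchymal end, higher in all 4. Its log2 fold of mesenchymal over epithelial end was 0.30 ± 0.10, with an unadjusted p of 0.004 and an edgeR adjusted p of 0.137. Tkt was at 93.9, 94.7, 109 and 117 CPM at the epithelial end and 64.7, 63.4, 60.1 and 77.2 at the mesenchymal end, lower in all 4 with no overlap (log2 fold -0.62 ± 0.21, adjusted p = 0.164). Gsr was lower at the mesenchymal end in all 4 libraries too (-0.67 ± 0.26, edgeR adjusted p = 0.242), and Glrx higher in all 4 (1.01 ± 0.39, adjusted p = 0.251). The Glrx values came from only 7, 3, 5 and 5 counts at the epithelial end and 9, 12, 9 and 10 at the mesenchymal end.

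The 7 genes whose population call held in every setting are set beside their axis values. Glrx, Sod1, Akr1b3, Tkt and Gsr were added after their values were seen, as called genes with an unadjusted edgeR p under 0.05 along the axis. Gstp1 had a log2 fold of 0.34 ± 0.23 along the axis, higher at the mesenchymal end in 4 of 4 libraries, and 0.82 ± 0.12 between the populations. Gpx8 had 0.21 ± 0.19, higher in 3 of 4, and 0.46 ± 0.093. Both pointed up in both comparisons, but neither passed along the axis (edgeR adjusted p = 0.645 and 0.748). Prdx6 had a log2 fold of 0.01 ± 0.090 along the axis and -0.47 ± 0.057 between the populations. Prdx1 had 0.01 ± 0.054 and -0.26 ± 0.049. Gpx1 had -0.09 ± 0.079 and -0.41 ± 0.054, and Txnrd1 0.07 ± 0.085 and 0.27 ± 0.056. Gstk1 had -0.58 ± 0.51 and -1.31 ± 0.23, but along the axis it was higher in 2 libraries and lower in 2. Its counts there were 7, 10, 4 and 3 at the epithelial end and 10, 3, 0 and 3 at the mesenchymal end (RFP+ labelled first). Glrx had 1.01 ± 0.39 along the axis and -0.50 ± 0.16 between the populations. Sod1 (0.25 ± 0.12 and -0.22 ± 0.064) and Akr1b3 (-0.63 ± 0.31 and 0.61 ± 0.15) pointed opposite ways too. Tkt (-0.62 ± 0.21 and -0.30 ± 0.11) and Gsr (-0.67 ± 0.26 and -0.37 ± 0.12) pointed down in both. The difference between the axis and the population effect was not tested.

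**Figure D5:**
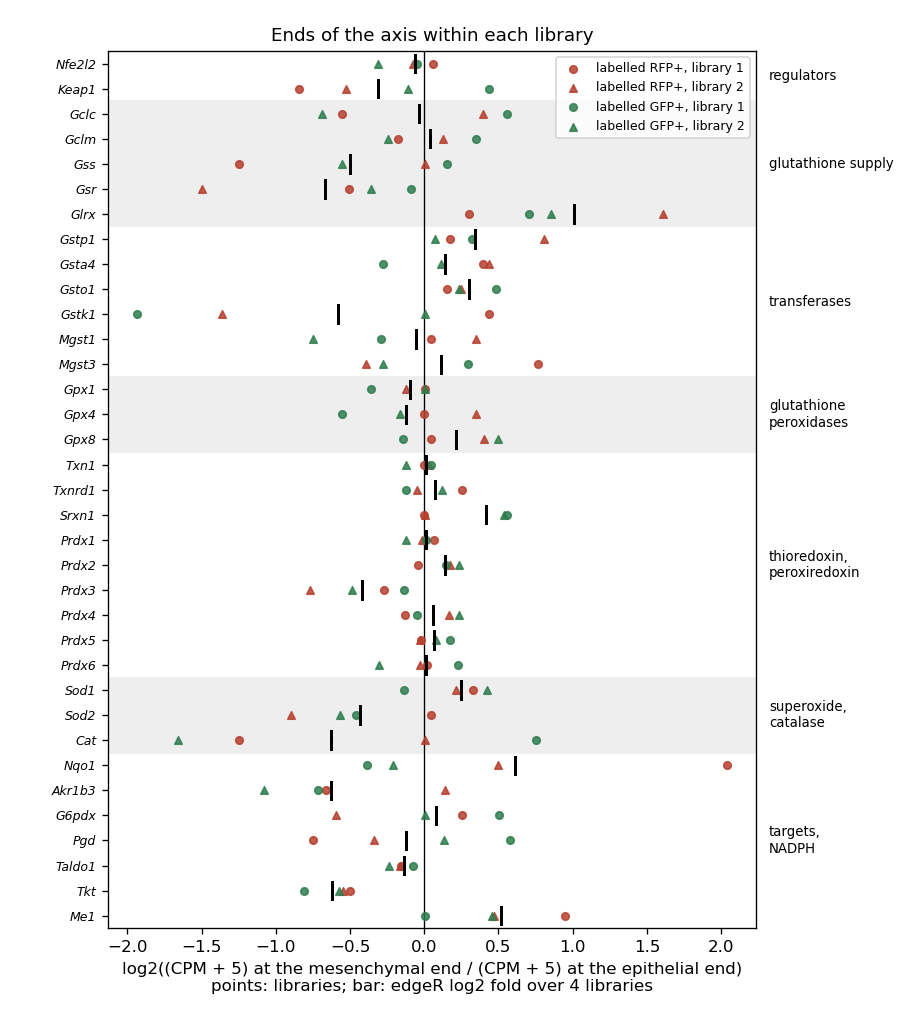
Log2 ratio of CPM plus 5 at the mesenchymal end over the epithelial end within each library, 1 point per library, with a bar for the edgeR log2 fold over the 4 libraries, for the 35 genes tested. Abundant genes such as Txn1, Prdx1 and Prdx6 lie near 0, and low genes such as Gstk1 and Cat scatter widely between libraries.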

How the data were processed

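The authors deposited 1 table of raw counts, genes by cells. The build was GRCm38, per the submitters' processing notes, and the sequencing was Drop-seq with Nextera libraries, per the labels' protocols. The aligner, the counter and the collapsing of molecular identifiers are not given in the sources read here. Of 7400 cells, 7390 had 500 or more counts and less than 20% from mitochondrial genes and were kept, and no doublet caller was run. Counts were summed per library and tested with edgeR 4.0.16 (R 4.3.3; TMM factors, quasi-likelihood F test) on genes with at least 10 CPM in either population and at least 20 counts. Each SE was obtained by dividing the size of the log2 fold by the root of F, whose dispersion is moderated across genes. The axis comparison used the same test with library as a term. Alternatives were RLE factors, DESeq2 1.42.0, other filters, thinned or deeper cells, length and GC offsets (splines on GENCODE M21 transcript length and GC content per library; 95.4% of tested genes had a length), a replicate block and leaving out each library. The fits were tested on simulated data. Members and lists were chosen with earlier results of these data known. Named are all 40 members and, per wider list, the 3 largest called changes per direction among genes of at least 20 CPM.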

Additional observations from a re-analysis of the deposited data

How the results depend on the processing

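Of the 17 antioxidant genes called between the populations, 7 (Gstp1, Gstk1, Gpx1, Gpx8, Txnrd1, Prdx1 and Prdx6) were called in every one of the 13 alternatives that tested them, 10 lost the call in at least one, and none of the 17 changed sign. Counts of 6 higher and 11 lower became 3 and 5 with DESeq2, and the count lower was 7 without a filter, 6 in cells thinned to 1000 counts and 6 with length and GC offsets. Leaving out 1 library gave 4 to 7 higher and 7 to 9 lower. For the wider lists, 9 higher and 15 lower became 3 and 1 with DESeq2, and the count lower was 9 with a filter of 50 CPM and 9 in thinned cells. The 15 include Dcaf11, Osgin1 and Aldh3a1, which passed the main filter only through the RFP+-labelled libraries. Leaving out 1 library gave 7 to 10 higher and 8 to 12 lower. The cause of these changes was not tested, and the shares of all genes called in these settings are not given here. Libraries were numbered within each population in the order of the sample titles, and the labels do not say that equal numbers belong together. Libraries given the same number did not deviate together (r of their deviations 0.02). With this number as a replicate block 7 antioxidant genes were higher and 11 lower. The axis and its difference between populations had 0 calls in every alternative. The median share of cells with a transcript rose with depth, from 6.20% to 12.1% in cells thinned to 2000 counts and 8.88% unthinned.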
